A study of Bos taurus and Ovis aries and Capra hircus with 27 samples.

Results

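Liver and kidney of sheep were compared through 6 messenger RNA libraries, 3 from each tissue. Genes entered the comparison when they exceeded 0.5 FPKM in at least 3 of these 6 libraries, and 13550 of the 25196 genes in the sheep table (53.8%) met this rule. FPKM is the number of fragments of a transcript scaled to the transcript's length and to the size of its library. The animals were small tail han sheep of about 3 years, and the study's methods describe 3 unrelated adult females for each population, sampled at low altitude in this case. The labels give no treatment, and the groups are labelled alike in breed, age and place and differ in the organ sampled. Heart (3 libraries), another tissue of the same sheep series, was not used in the rule or in the test and is given beside the results. Expression was measured in pieces of whole organ, so that fewer cells of a type and less RNA per cell cannot be told apart.

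Liver and kidney both handle the small molecules of the blood, but they are built differently. The bulk of the liver consists of hepatocytes, which synthesise most of the proteins of blood plasma and carry out gluconeogenesis, urea synthesis and bile formation. The kidney is a series of unlike epithelia, from the filtering glomerulus through the proximal tubule, the loop of Henle and the distal tubule to the collecting duct, each with its own set of transporters and channels. The sheep identifiers carried no gene names, and the reference table used here, of cattle genes, matched 0 of the 25196. Marker genes of hepatocytes and of the tubule segments could therefore not be looked up, the tissue labels could not be checked against them, and results are given for groups of genes and for 4 genes by identifier.

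Summed FPKM ranged from 416442 to 587533 among the 6 libraries. Fragment counts were not used here, so that the depth behind each value was not known. Pearson's r over the tested genes on log2(FPKM + 1) ranged from 0.926 to 0.973 between replicates and from 0.442 to 0.494 between liver and kidney libraries. Liver 1 stood apart from the other liver libraries (r of 0.926 and 0.928, against 0.972 between liver 2 and 3), and kidney 2 from the other kidney libraries (0.939 and 0.928, against 0.973 between kidney 1 and 3). Among genes between 5 and 8 in log2(FPKM + 1), differences between libraries had a robust SD (scaled from the median absolute deviation) of 0.378 for liver 2 and 3 and of 0.292 for kidney 1 and 3. It was 0.849 and 0.757 for the pairs with liver 1 and 0.507 and 0.635 for those with kidney 2. These libraries were kept. The main test below called 9526 genes with all 6 libraries, 9744 without liver 1 and 8865 without kidney 2. Some further results below are given with 1 library left out.

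Of the genes that passed the rule, 9758 exceeded 0.5 FPKM in all 6 libraries. A further 492 passed through the 3 liver libraries alone and 1393 through the 3 kidney libraries alone, so that these genes had to differ between the tissues. At the threshold, the 1996 genes above 0.5 FPKM in exactly 3 libraries had a median of 1.63 FPKM in the library that ranked 3rd. The 582 genes above it in exactly 2 libraries had a median of 0.341 FPKM there. Of the 11646 genes that did not pass, 7323 were listed at 0 in all 6 libraries.

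Most tested genes differed between the organs, and with the deposited values the majority were higher in kidney. In limma's moderated test, 9526 of the 13550 genes (70.3%) had a p of at most 0.05 after Benjamini-Hochberg adjustment. Of these, 1611 genes (11.9% of those tested) were higher in liver and 7915 (58.4%) were higher in kidney. Without overlap between the 3 libraries of each tissue, 1722 genes (12.7%) lay higher in liver and 8602 (63.5%) higher in kidney. The rule fixed this for the genes that passed through one organ alone. Among the other 11665 genes, 1230 (10.5%) lay higher in liver and 7209 (61.8%) higher in kidney without overlap, and 1121 (9.61%) and 6541 (56.1%) were called. The liver minus kidney difference had a median of -0.998 on the log2 scale over all tested genes, so that a typical gene read lower in liver by that amount.

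This balance depended on the scaling of the libraries. Median ratio scaling divides each library by the median of its ratios to the geometric mean over genes, and thereby centres the libraries on the typical gene. It moved the median difference to -0.05, and 6940 genes (51.2%) were called, 3363 of them (24.8% of those tested) higher in liver and 3577 (26.4%) higher in kidney. The part of the calls that was higher in liver thus rose from 16.9% to 48.5%. Quantile normalization gave 41.2%, and scaling all libraries to the same summed FPKM gave 14.3%. Of the 9526 genes called with deposited values, 5188 were also called under median ratio scaling and 0 of these changed direction. Differences below are therefore also read relative to the median gene.

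**Figure D1:**
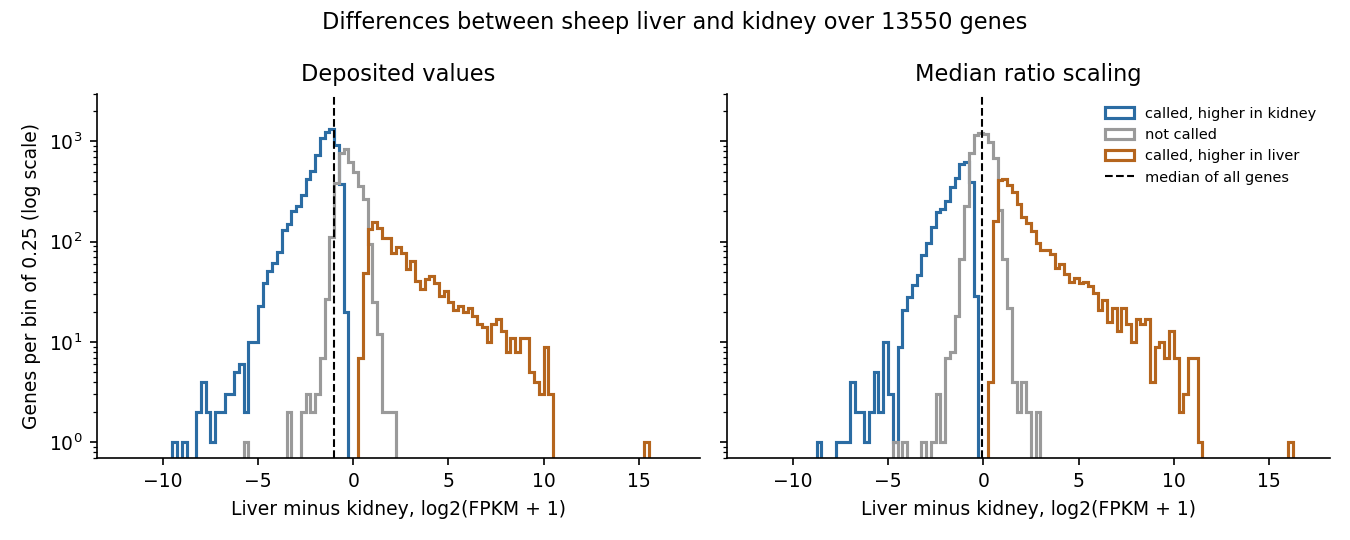
Histograms of the liver minus kidney difference in log2(FPKM + 1) for the 13550 tested genes (horizontal axis, bins of 0.25; vertical axis, genes per bin on a log scale), with deposited values on the left and median ratio scaling on the right. Lines mark genes called higher in kidney (blue), genes not called (grey) and genes called higher in liver (brown), and the dashed line is the median of all genes. The tail towards liver is longer than the tail towards kidney in both panels, with 909 against 231 genes and 913 against 240 genes over 3 log2 units from the median.

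The genes higher in liver were fewer, but their differences were larger. Relative to the median gene, 909 genes (6.71%) lay over 3 log2 units towards liver and 231 (1.70%) lay over 3 units towards kidney. At a distance of 5 units there were 430 genes on the liver side and 26 on the kidney side, and at 6 units there were 287 and 13. With the median at -0.998, the limit lay nearer to 0 on the liver side. Median ratio scaling gave similar counts (913 against 240 genes at 3 units, 272 against 13 at 6 units), and it shared 870 of the 909 and 210 of the 231 genes. As it also centres on the typical gene, it is not an independent check of counts taken from the median. Leaving out any 1 of the 6 libraries gave 891 to 938 genes on the liver side and 224 to 260 on the kidney side. The asymmetry was smaller with a pseudocount of 0.1 in place of 1, which spreads out low values (1241 against 729 genes at 3 units). It was also smaller without a filter on low values (799 against 363) and with quantile normalization (828 against 317), and it was 498 against 178 among the 10885 genes that exceeded 0.5 FPKM in 5 or all 6 libraries. Among the calls with deposited values, the median difference was 2.32 for genes higher in liver and -1.51 for genes higher in kidney. Counted from 0 in place of the median, 613 of the liver calls and 786 of the kidney calls had a size of 3 or more. At this limit the order was thus the reverse of that relative to the median gene. At a size of 5 or more there were 287 liver calls and 54 kidney calls.

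In the lower organ these genes of large difference were close to the limit of the rule. The 909 genes on the liver side had a median of 54.4 FPKM in liver and 0.872 in kidney, and 53 of them exceeded 1000 FPKM in liver. The 231 genes on the kidney side had a median of 63.1 FPKM in kidney and 1.31 in liver, and 11 exceeded 1000 FPKM in kidney. The 909 genes held 43.3%, 49.2% and 51.1% of summed FPKM in liver 1, 2 and 3. They held 1.51%, 1.16% and 1.59% in kidney 1, 2 and 3. The 231 genes held 19.7%, 12.3% and 16.7% of the kidney libraries and 0.125%, 1.02% and 0.301% of the liver libraries. Large differences relative to the median gene thus accounted for more of a liver library than of a kidney library. With the median at -0.998, the limit lay nearer to 0 on the liver side, and shares at equal distances from 0 were not taken. Both sets of genes were chosen by the difference itself, and the values describe them without a test.

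The direction of the calls changed with the level of expression. Genes were grouped by their mean FPKM over the 6 libraries, and the share of genes called stayed between 66.4% and 73.7% in every group, close to the 70.3% of all tested genes. Of the calls among the 7151 genes at 1 to 10 FPKM, 9.98% were higher in liver. This share was 23.2% among 4828 genes at 10 to 100 FPKM, 56.7% among 529 genes at 100 to 1000 FPKM and 69.2% among the 72 genes at 1000 FPKM or more. Below 1 FPKM it was 13.5% (970 genes). Median ratio scaling raised every one of these shares, to 28.7%, 37.2%, 61.5%, 80.1% and 82.6% from the lowest to the highest group. The abundant transcripts were thus the group in which liver calls prevailed under both scalings, whereas at 10 to 100 FPKM the prevailing direction depended on the scaling.

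**Figure D2:**
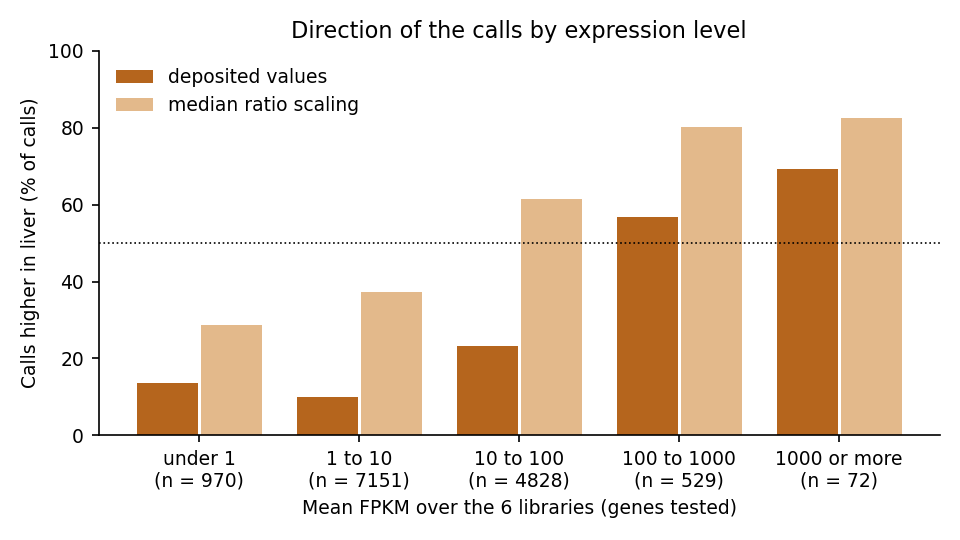
Share of limma calls that were higher in liver (vertical axis, % of calls) for genes grouped by mean FPKM over the 6 libraries (horizontal axis, with the number of genes tested), for deposited values (dark bars) and median ratio scaling (light bars). The dotted line marks 50%. The share rises from 9.98% at 1 to 10 FPKM to 69.2% at 1000 FPKM or more with deposited values, and from 37.2% to 82.6% with median ratio scaling.

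The spread between replicates was also uneven across these groups. For genes at 10 to 100 FPKM, the median SD of log2(FPKM + 1) was 0.442 over the liver libraries and 0.260 over the kidney libraries. At 1000 FPKM or more it was 0.504 in liver and 0.573 in kidney. Differences of 3 log2 units were thus several times the median spread between replicates in both organs.

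Liver expression was concentrated in fewer genes than kidney expression. Ranked from the highest gene, 39, 78 and 88 genes made up 50% of summed FPKM in liver 1, 2 and 3. In kidney 1, 2 and 3 this took 128, 133 and 209 genes, and the libraries of the organs did not overlap. To reach 90% took 1296 to 2158 genes in liver and 4474 to 5149 in kidney. The 100 highest genes of a library held 56.4% ± 6.0 of its summed FPKM in liver and 44.7% ± 3.21 in kidney (SD, n = 3), a difference of 11.7 percentage points. The exact permutation test between the organs gave p = 0.1 (2-sided), and no smaller p can be reached with 3 libraries in each organ. Liver 1 was the most concentrated library, and without it the difference was 8.24 percentage points. For comparison, 12 to 16 genes made up 50% of a heart library. The share of listed genes above 0.5 FPKM was 45.9% ± 1.99 in liver and 53.0% ± 0.398 in kidney (SD, n = 3; exact permutation p = 0.1, 2-sided). The liver minus kidney difference of -7.14 percentage points became -2.12 points under median ratio scaling.

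**Figure D3:**
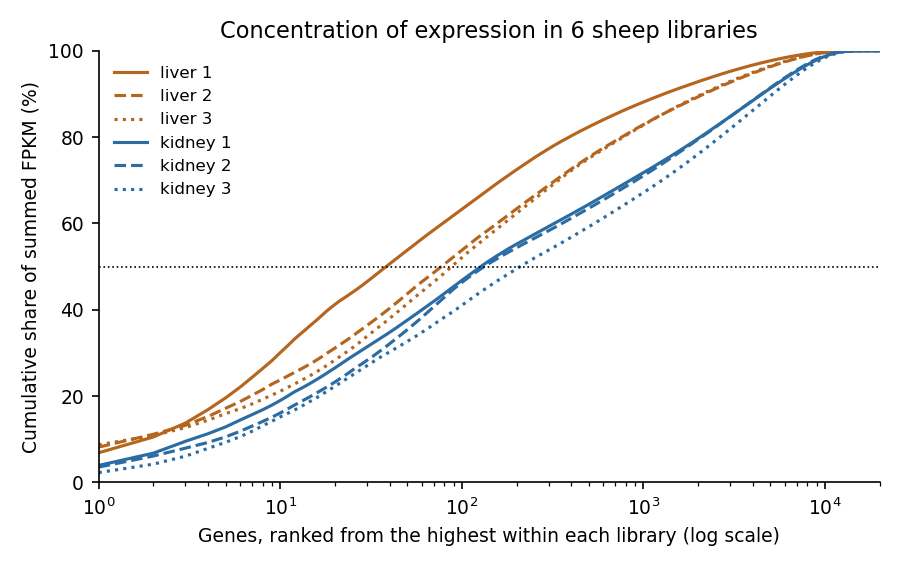
Cumulative share of summed FPKM (vertical axis, %) against the number of genes ranked from the highest within each library (horizontal axis, log scale) for 3 liver (brown) and 3 kidney (blue) libraries of sheep. The dotted line marks 50%, which the liver libraries reach with 39 to 88 genes and the kidney libraries with 128 to 209.

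The calls divided the output of each organ in a like manner. The 1611 genes called higher in liver held 64.6%, 64.7% and 64.8% of summed FPKM in the 3 liver libraries and 8.75%, 7.97% and 9.80% in the kidney libraries. The 7915 genes called higher in kidney held 61.3%, 56.7% and 59.9% in the kidney libraries and 9.73%, 11.2% and 10.8% in the liver libraries. With deposited values, close to the same part of each organ's output was thus held by its own set. The kidney set was the larger by far in number of genes. These sets were chosen by their difference in the same libraries, so that a larger share in the own organ followed from the choice. Under median ratio scaling the sets were close in size (3363 liver and 3577 kidney genes), and their shares were not taken. Genes that were not called held 22.6% to 25.1% of the liver libraries and 28.9% to 33.8% of the kidney libraries. The genes not tested held at most 1.55% in any of the 6 libraries.

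**Figure D4:**
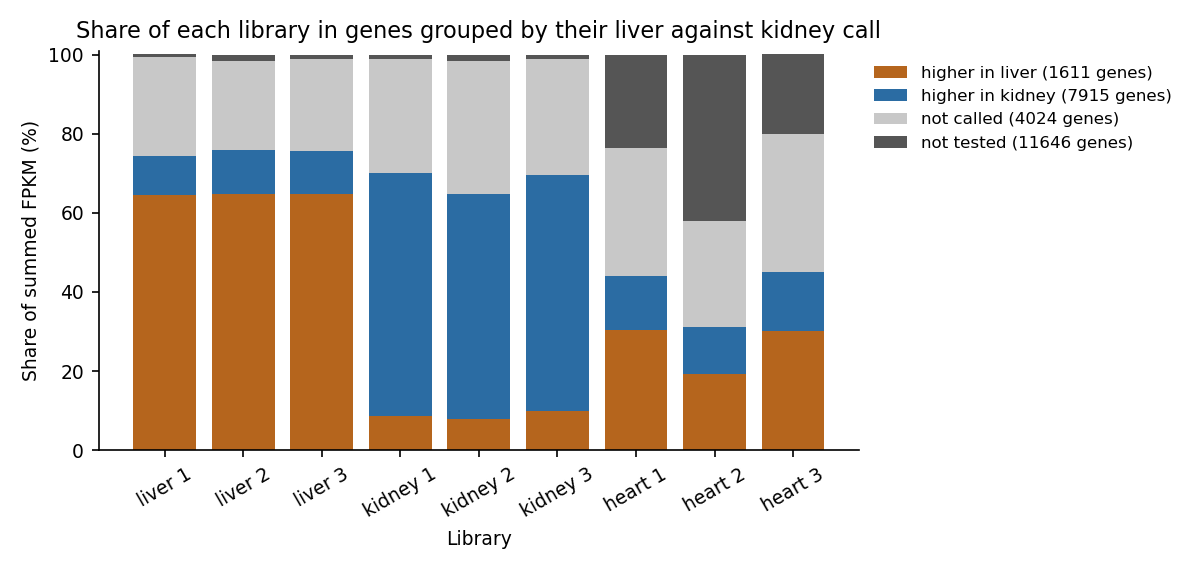
Share of summed FPKM (vertical axis, %) in each of the 9 sheep libraries (horizontal axis) taken by genes called higher in liver, genes called higher in kidney, genes not called and genes not tested. The liver set fills 64.6% to 64.8% of the liver libraries and the kidney set 56.7% to 61.3% of the kidney libraries, while genes outside the rule fill 20.2% to 42.0% of the heart libraries.

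The highest genes of each organ were of unlike kinds. Of the 20 genes with the highest mean in liver, 9 also had means above 1000 FPKM in kidney and in heart. Their means were 4691 to 15730 FPKM in liver, 1858 to 8560 in kidney and 19871 to 62431 in heart, so that heart was the highest of the 3 tissues for this group. Their liver minus kidney differences ranged from 0.53 to 1.97 on the log2 scale. Of the 9, 6 were called higher in liver, against 11.9% of all tested genes and 36 of the 72 genes at 1000 FPKM or more. This group took 21.3% of liver 1, but 13.6% and 10.7% of liver 2 and 3, and 7.09% to 8.13% of the kidney libraries. A further 7 of the 20 had means below 100 FPKM in kidney and in heart. These were at 3607 to 6623 FPKM in liver and at most 69.0 in kidney and 25.9 in heart.

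The 20 highest genes of kidney held 11 with means above 1000 FPKM in liver and in heart and 5 with means below 100 FPKM in both. The 5 restricted genes had means of 3281 to 8587 FPKM in kidney, at most 36.4 in liver and at most 8.26 in heart. They took 8.39%, 3.11% and 6.97% of kidney 1, 2 and 3. Of the 20 highest kidney genes, 10 were called higher in kidney and 5 higher in liver. Of the 20 highest liver genes, 17 were called higher in liver and 0 higher in kidney. Over all tested genes, 58.4% were called higher in kidney and 11.9% higher in liver. Among the 72 genes at 1000 FPKM or more, 16 were called higher in kidney and 36 higher in liver. Each list was chosen by a high mean in its organ, which favours calls towards that organ. Calls under median ratio scaling were not counted for these lists. The lists of 20 had 8 genes in common. Several of the highest kidney genes were thus higher still in liver.

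Replicate libraries differed widely in some of these restricted genes. Of the 7 restricted liver genes, 3 varied over 3-fold between liver libraries (3.96-fold to 7.0-fold), all 3 with the highest value in liver 1 and the lowest in liver 3. Among the other 4, the largest ratio was 2.30. Of the 5 restricted kidney genes, 3 varied over 3-fold (3.57-fold to 33.6-fold), all 3 highest in kidney 1 and lowest in kidney 2. As these genes were chosen for a high level in one organ and a low level in the other, their difference between organs is a description.

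Some genes were listed at 0 throughout one organ. A total of 93 genes exceeded 0.5 FPKM in every liver library and were listed at 0 in every kidney library, and 131 genes showed the opposite pattern. A value of 0 can be a failed estimate in these tables, so that no fold change is given. The genes of the first set had a median of 5.86 FPKM in liver, and 4 of them reached 100 FPKM. Those of the second set had a median of 2.07 FPKM in kidney, and 115 of the 131 were under 10. Of the 93 genes, 57 were also listed at 0 in all heart libraries, and so were 33 of the 131. Both counts depended on the limits. The first was 126 when up to 0.05 FPKM was allowed in kidney, 71 when 1 FPKM was required in liver, and 100 to 136 with 1 library left out. The second count was 222 when up to 0.05 FPKM was allowed in liver and 76 when 1 FPKM was required in kidney. It was 200 without liver 2 and 209 without liver 3, as fewer zeros were then required.

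Heart served as a tissue outside the comparison. Of all 13550 tested genes, 1533 (11.3%) were at or below 0.5 FPKM in all 3 heart libraries. Of the 909 genes far towards liver, 410 (45.1%) were, and of the 231 genes far towards kidney, 34 (14.7%) were. With the genes chosen under median ratio scaling, these shares were 42.2% and 17.9%. The share off in heart was higher on the liver side than on the kidney side under both scalings, and the shares were not tested against each other. The 2 sides also differed in level with deposited values. A mean of 1 to 10 FPKM over the liver and kidney libraries was found for 208 of the 909 genes and 5 of the 231. The part of this level difference in the heart shares was not tested.

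Among the calls, heart more often lay below the midpoint of liver and kidney than above it. The calls were chosen by the difference between these organs, and this share was not taken over all tested genes. Of the 1611 genes called higher in liver, heart was below the midpoint of liver and kidney on the log2 scale for 77.0%, and above both organs for 13.2%. Of the 7915 genes called higher in kidney, heart was below the midpoint for 67.6% and above both for 12.5%. The genes below the midpoint included 794 of the liver calls and 1777 of the kidney calls in which heart lay below both organs. The median log2(FPKM + 1) of the liver set was 1.58, 1.59 and 1.56 in the heart libraries, against 1.38, 1.32 and 1.40 in kidney and 4.43, 4.86 and 4.97 in liver. That of the kidney set was 2.12, 2.32 and 2.21 in heart, against 1.24, 1.73 and 1.71 in liver and 3.34, 3.50 and 3.42 in kidney. With calls and levels under median ratio scaling, heart lay below the midpoint for 60.9% of the liver calls and 60.0% of the kidney calls, and above both organs for 22.0% and 22.9%.

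Genes are named by identifier, 2 for each organ. ENSOARG00000018637 was the gene with the highest mean in liver. It had 38253, 45751 and 51211 FPKM in liver 1, 2 and 3 and was the highest gene of each of these libraries, with 6.88%, 8.18% and 8.72% of their summed FPKM. All kidney libraries listed it at 0, and heart had 261, 329 and 231 FPKM. As a listed 0 can be a failed estimate, neither a fold change nor a test is given.

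ENSOARG00000015661 had the largest difference towards liver among genes above 0 in all 6 libraries. It had 2263, 3533 and 5202 FPKM in liver 1, 2 and 3, and 0.608, 1.55 and 3.05 FPKM in kidney 1, 2 and 3. Every liver library lay above every kidney library, which the choice required, as it did a limma call. The gene ranked between the 11th and the 37th place in liver. The difference was 10.41 ± 0.44 (SE) on the log2(FPKM + 1) scale, or 11.41 relative to the median gene, with a limma adjusted p of 1.48e-06. Heart was listed at 0, 0 and 0.140 FPKM.

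ENSOARG00000002846 had the largest difference towards kidney under the same rule. It had 7547, 5143 and 9492 FPKM in kidney 1, 2 and 3, and 18.3, 12.4 and 12.3 FPKM in liver 1, 2 and 3. It was the highest gene of kidney 3, the 6th of kidney 1 and the 10th of kidney 2. The liver minus kidney difference was -8.89 ± 0.35 (SE), or -7.89 relative to the median gene (limma adjusted p = 1.25e-06). Unlike the liver gene above, it was clearly above the limit of the rule in the lower organ, and it was lower again in heart, with 1.49, 1.92 and 0.549 FPKM.

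ENSOARG00000021738 was the gene with the highest mean in kidney. It had 19086, 18849 and 4128 FPKM in kidney 1, 2 and 3, and it was the highest gene of kidney 1 and 2. In liver 1, 2 and 3 it had 0, 4034 and 0 FPKM, so that the organs were separated only by the small gap between kidney 3 and liver 2. No difference is given because of the listed zeros. The limma adjusted p was 0.0172, and the call was lost without liver 1 (adjusted p = 0.0749), liver 3 (0.0535), kidney 1 (0.0523) or kidney 2 (0.0639). Over the 6 fits without 1 library, the adjusted p ranged from 1.6e-05 to 0.0749. Heart had 163, 0 and 212 FPKM. In liver 2, 1 other gene had exactly the same value.

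**Figure D5:**
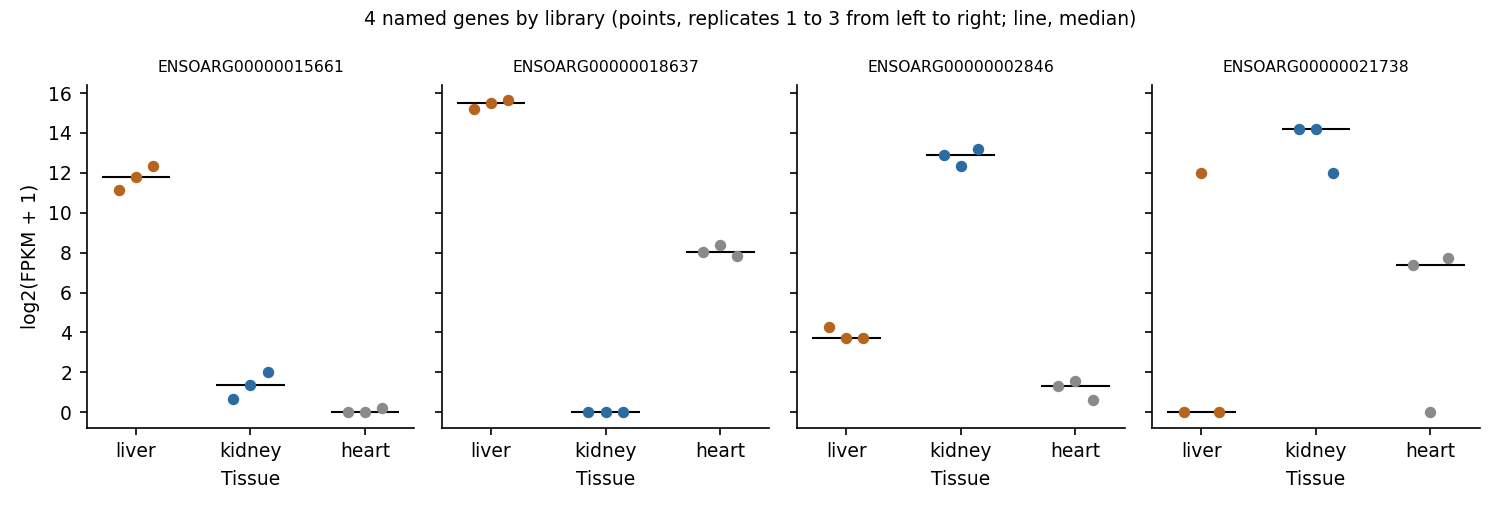
Values of the 4 named genes in log2(FPKM + 1) (vertical axis) in liver, kidney and heart of sheep (horizontal axis). Points are libraries, replicates 1 to 3 from left to right, and lines are medians. The first 3 genes show libraries of one organ close together and far from the other, while ENSOARG00000021738 is listed at 0 in 2 liver libraries and lies at 4034 FPKM in liver 2, beside 4128 FPKM in kidney 3.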

How the data were processed

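Per the study's methods, reads were filtered, mapped with TopHat to the sheep build Oar_v3.1 (the processing notes in the labels name the cattle build UMD3.1 for all samples, while the identifiers are those of sheep) and quantified with Cufflinks 2.2.1 (version per the labels' processing notes). The authors deposited values on the log2 scale, log2(FPKM + 1), with 1 column per library. Libraries were strand-specific per the labels. Columns were matched to samples by the names in the sample descriptions. The transform was undone to give FPKM. Fragment counts were not given. Between the 6 replicate pairs, the most frequent log2 ratio of values below 0.3 FPKM lay between -0.13 and 0.03. It was held by at most 116 of 1597 genes, so that relative depth within an organ is known only roughly. For pairs of a liver and a kidney library this ratio lay between -1.11 and 0.21, held by at most 10 genes. Relative depth between the organs could not be read from it.

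Limma 3.58.1 (R 4.3.3) was fitted to 6 libraries with a mean per tissue and a mean-variance trend, with Benjamini-Hochberg adjustment over all 13550 genes at 0.05. On simulated data, 61% of 200 genes given a log2 change of 2 were found, and 2.4% of the calls were false. In the simulation 200 of 13550 genes changed and no shift was common to all genes, whereas 70.3% were called in the data. These rates therefore do not carry over to the comparison. Python 3.11.15, numpy 2.4.6 and pandas 2.3.3 were used for the remaining steps. FPKM is a relative value, so that very abundant transcripts lower all others.

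Named genes were, per direction, the called gene without overlap between organs that had the largest log2 difference with values above 0 in all 6 libraries, and the one with the highest mean. Lists of markers and pathways by symbol could not be applied, since 0 identifiers matched the cattle reference (ARS-UCD2.0). The comparison and these choices were made with earlier results of these data known. The cattle and goat tables and the goat protein file were not used here.

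The study's methods describe the tissues as sampled from the same 3 females of each population. By that account the liver and kidney libraries do not come from separate groups of animals. Liver and kidney libraries share replicate numbers, but the labels do not say that a number marks an animal. The main fit therefore did not pair the libraries.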

Additional observations from a re-analysis of the deposited data

How the results depend on the processing

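The number of genes called (9526) ranged from 8392 to 9744 when 1 library was left out, and it was 9596 with the replicate number as a block. It fell to 5313 under median ratio scaling with a minimum log2 difference of 1, which was chosen after seeing the data, as were the counts far from the median under other settings and the calls without genes of mixed zeros. In that setting the part of calls higher in liver passed 50%, at 52.5%, so that the direction of the majority was reversed. From 16.9%, this part moved to 48.5% with median ratio scaling, 41.2% with quantile normalization, 14.3% with equal sums, 14.5% with 0.5 FPKM required in over 80% of these 6 libraries (the study set this level over other libraries) and 17.7% with a minimum difference of 1, and it ranged from 16.3% to 19.9% with 1 library left out. The median difference of -0.998 moved to -0.051, -0.205, -0.63 and -1.286 with median ratio scaling, quantile normalization, no filter and a pseudocount of 0.1, and ranged from -1.064 to -0.867 with 1 library left out. Scaling centres the libraries by construction. The difference in expressed genes of -7.14 points moved to -5.61 at 0.1 FPKM and -2.12 with median ratio scaling. The 131 genes present in kidney and listed at 0 in liver became 76 when 1 FPKM was required and 222 when up to 0.05 FPKM was allowed, and 155 to 209 with 1 library left out. In the same order, the 93 genes of the opposite pattern became 71, 126, and 100 to 136.

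Deviations of same-numbered liver and kidney libraries correlated by 0.15, 0.06 and 0.09, each the highest for its library. This is a hint, from the data and not from the labels, that a number marks an animal. The replicate block kept 9245 of the 9526 calls. Within replicate numbers the exact permutation p of the 3 library shares was 0.25, the smallest possible. Without counts, values at low FPKM have unknown counting error.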

Other observations

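Of the tested genes, 866 were listed at 0 in some but not all libraries of an organ, and 55 of these exceeded 100 FPKM in another of the 6 libraries. Leaving all 866 out gave 8818 calls, of which 16.2% were higher in liver. Between 112 and 179 of the genes above 0 in a liver or kidney library had exactly the value of another gene in that library. Above 100 FPKM there were 2 such genes in liver 2, 2 in liver 3 and 4 in kidney 2, and the highest shared values were 4034 FPKM in liver 2 and 1729 FPKM in kidney 2.

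The order of the libraries within liver was uneven for the genes of large difference. Of the 909 genes over 3 log2 units towards liver, 583 were lowest in liver 1 and 421 were highest in liver 3. Liver 1 had the smallest median ratio factor of the liver libraries, 0.497 against 0.732 and 0.749, and its part in this order was not tested. Of the 231 genes far towards kidney, 83, 92 and 56 were lowest in kidney 1, 2 and 3. The range between replicates was at least 2 log2 units for 131 of the 909 genes in liver (14.4%) and for 24 of the 231 in kidney (10.4%).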
